A study of Mus musculus with 10 samples.

Results

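The transcript response of cerebellar granule cell precursors to sonic hedgehog (Shh) was compared between wild type and Bmi1 knockout mouse cultures. The measure was a difference of differences on log2 signal: the Shh response of the knockout (with Shh minus untreated) minus the Shh response of wild type. All 10 of the 10 arrays entered it, and 11405 of 18193 named genes passed the brightness filter and were tested. A value above 0 (called positive here) thus marks a gene whose response lay higher in the knockout, either a smaller fall or a larger rise, and a value below 0 (negative) the opposite. The arrays were Affymetrix Mouse Genome 430 2.0 chips, each hybridised with RNA of 1 culture.

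The 4 groups were wild type untreated (3 arrays, replicates 1, 3 and 5), Bmi1 knockout untreated (3 arrays, replicates 2, 4 and 6), wild type with Shh (2 arrays, replicates 7 and 9) and Bmi1 knockout with Shh (2 arrays, replicates 8 and 10). Knockout means Bmi-1-/- in the labels. All cultures came from cerebella of pups at postnatal days 5 to 7 per the sample labels, from which meninges and vessels had been taken off, and all grew for 24 hours with 10% serum and 20 mM KCl. Treated cultures had Shh for 24 hours at a concentration labelled 3 mg/ml. The labels leave out how long the untreated cultures were kept in all. All untreated arrays also have lower replicate numbers than the arrays with Shh. Within a genotype, anything that went with these numbers or with total culture time cannot be told apart from Shh. The term Shh response here means the difference between arrays with Shh and untreated arrays. Replicate 3 counts as untreated by its title, although its treatment note names Shh with the words "if applicable". How many pups each culture was made from is likewise not known here. The p-values therefore reflect the spread among arrays, part of which may be technical.

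Granule cell precursors divide in the outer layer of the postnatal cerebellum, and Shh released by Purkinje cells is their main mitogen. Shh binds Patched, which frees Smoothened, and Gli transcription factors then switch on targets such as Gli1, Ptch1, Mycn and Ccnd1. Bmi1 is a subunit of Polycomb repressive complex 1, which holds chromatin silent, and its best known target is the Cdkn2a locus, whose products p16 and p19Arf slow the cell cycle and raise p53.

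Signal was deposited on 1 common scale, with a 2% trimmed mean of 500 on each array. Median signal was 84.8 to 91.2 on the untreated arrays and 66.8 to 72.3 on the Shh arrays. The 18S ribosomal probe signal was 6301 on replicate 6 (untreated knockout), 2030 on replicate 1 (untreated wild type) and 228 to 649 on the others. Xist, a marker of female cells, exceeded the Y-linked Eif2s3y on 2 of 3 untreated arrays of each genotype, on 0 of 2 wild type arrays with Shh and on 1 of 2 knockout arrays with Shh. Sex was therefore not balanced between the groups. The deleted part of Bmi1 is not given, and its probe set does not check the genotype: Bmi1 signal was 3673, 4253 and 3948 in untreated wild type and 4515 and 4165 with Shh, against 3510.1, 3904 and 3416 in untreated knockout and 3432 and 3416 with Shh. Cdkn2a signal, in contrast, was 35.7, 30.2 and 41.6 in untreated wild type and 31.1 and 24.0 with Shh, against 273, 271 and 301 in untreated knockout and 329 and 451 with Shh, so the arrays of each genotype lay apart from those of the other. The defining granule lineage genes were present, with 18 of 21 listed genes tested. Markers of glia, vessels and macrophages passed the filter as well, so other cell types were present.

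The response to Shh differed between genotypes beyond the adjusted threshold for 1 gene, Igf2, a secreted growth factor. This is 1 of 11405 genes (0.00877%), by limma's moderated test with Benjamini-Hochberg adjustment over all genes, and 0 genes passed in the negative direction. At an unadjusted p under 0.05 the count was 561 genes (4.92%), of which 328 were positive (2.88%) and 233 negative (2.04%). If p-values were spread evenly, each 0.05 step would hold 570.25 genes, so the lowest step held about the number that an even spread gives in this unpaired fit. With arrays of consecutive numbers taken as pairs (a replicate block that rests on the data alone), 856 genes (7.505%) had an unadjusted p under 0.05 and 0 passed the adjusted threshold. After Igf2 the lowest adjusted p was 0.444. The positive share among these 561 genes, 58.5%, moved to 47.9% after quantile normalization and to 40.4% after centring each array on its median, so this split depends on the scaling.

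**Figure D1:**
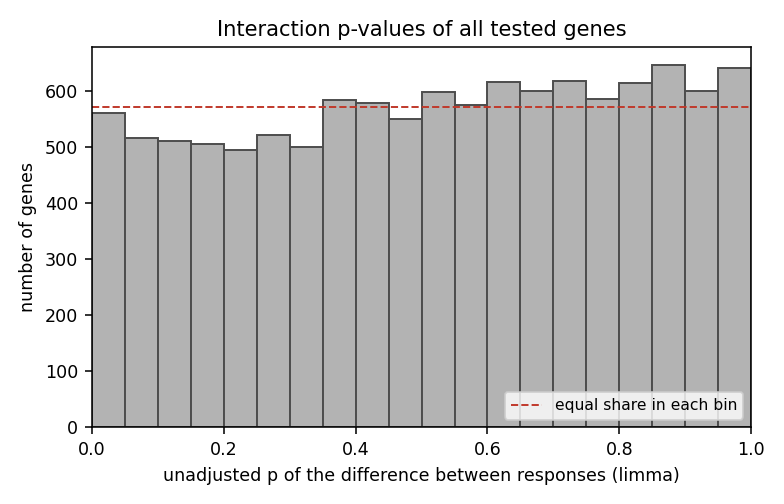
Number of genes (vertical axis) in steps of 0.05 of the unadjusted interaction p (horizontal axis), for the 11405 genes tested; the dashed line marks 570.25 genes, an equal share in each step. The lowest step holds 561 genes.

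The precision of these differences was limited by the number of arrays. The standard error of the difference had a median of 0.197 on the log2 scale, and the 95% interval had a median half-width of 0.44 (5th to 95th percentile 0.29 to 1.02). For 9475 genes (83.1%) the whole interval lay between -1 and 1, so that a difference of more than 2-fold between the responses lay outside the interval of these genes. A difference beyond 1 in either direction was estimated for 128 genes (1.12%). The estimates had a median of 0.00, with 5724 positive and 5681 negative, and a 5th to 95th percentile of -0.39 to 0.50. The threshold of adjusted p separated Igf2 at 0.0382 from Adgra1, an adhesion G protein-coupled receptor, and Plaat1, a lipid-modifying enzyme, both at 0.444.

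Set side by side, the responses of the genotypes were alike in direction for nearly all genes called in both. Between arrays with Shh and untreated arrays, 3855 genes differed in wild type (33.8%), with 1593 higher (14.0%) and 2262 lower (19.8%). In the knockout 3199 genes differed (28.0%), with 1260 higher (11.0%) and 1939 lower (17.0%). The balance of higher and lower calls depends on the scaling: with each array centred on its median, 5189 of 6433 wild type calls and 4363 of 5489 knockout calls were higher. On the deposited scale, 2597 genes were called in both genotypes, which is 67.4% of the wild type calls and 81.2% of the knockout calls, and 2595 of them moved in the same direction. A call in 1 genotype alone is not a difference between genotypes. Of the 1258 genes called in wild type alone, 1212 had the same sign in the knockout and 163 had an interaction p under 0.05. Of the 602 genes called in the knockout alone, 560 had the same sign in wild type and 102 had an interaction p under 0.05. Among the 5 largest average rises and the 5 largest average falls, 0 of 10 genes had an interaction p under 0.05, and 4 of the 10 lay at the signal floor in at least 1 group. Usp18, a protease that removes the interferon-induced modifier Isg15, rose by 6.59 in wild type and by at least 6.20 in the knockout, where it lay at the floor on all 3 untreated arrays. Cldn5, a tight junction protein of vessels, changed by -5.10 and -5.52. An interaction p under 0.05 was found for 18.9% of the 233 genes that fell at least 4-fold on average (35 positive, 9 negative) and 21.6% of the 37 that rose at least 4-fold (0 positive, 8 negative), beside 4.92% of all genes, with no test of these shares.

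The size of the response was slightly smaller in the knockout. Over the 5376 genes (47.1%) called for the average of both responses, a choice that favours neither genotype, the knockout response was the smaller for 3340 (62.1%). Genes that rose (2385, or 20.9%) had a median response of 0.45 in wild type and 0.40 in the knockout, and genes that fell (2991, or 26.2%) had medians of -0.70 and -0.62. The slope of the knockout response on the wild type response was 0.866, and that of wild type on knockout was 1.04, and Pearson's r was 0.944 (Spearman's rho 0.926) across genes, which are not independent replicates. The slope of knockout on wild type had an SD of 0.023 over the choices of 1 Shh array per genotype, and without replicate 10 the slope of wild type on knockout was 0.985. Arrays were also placed along the average response, with 0 for the untreated mean of the same genotype and 1 for the average of both responses. The wild type Shh arrays lay at 1.035 and 1.058 and the knockout Shh arrays at 0.965 and 0.942, while the untreated arrays lay between -0.053 and 0.040. Both knockout arrays thus lay below both wild type arrays, by less than the width of the untreated range for replicates 7 and 8. By construction the Shh arrays of both genotypes average 1, so wild type above 1 puts the knockout below it. The positions are therefore no separate test of the size. In absolute terms the difference in size was larger for strong responses: the 909 genes that fell at least 2-fold on average had medians of -1.64 and -1.47, with 109 positive and 31 negative differences at an unadjusted p under 0.05. The 193 genes that rose at least 2-fold had medians of 1.38 and 1.28, with 2 positive and 20 negative.

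**Figure D2:**
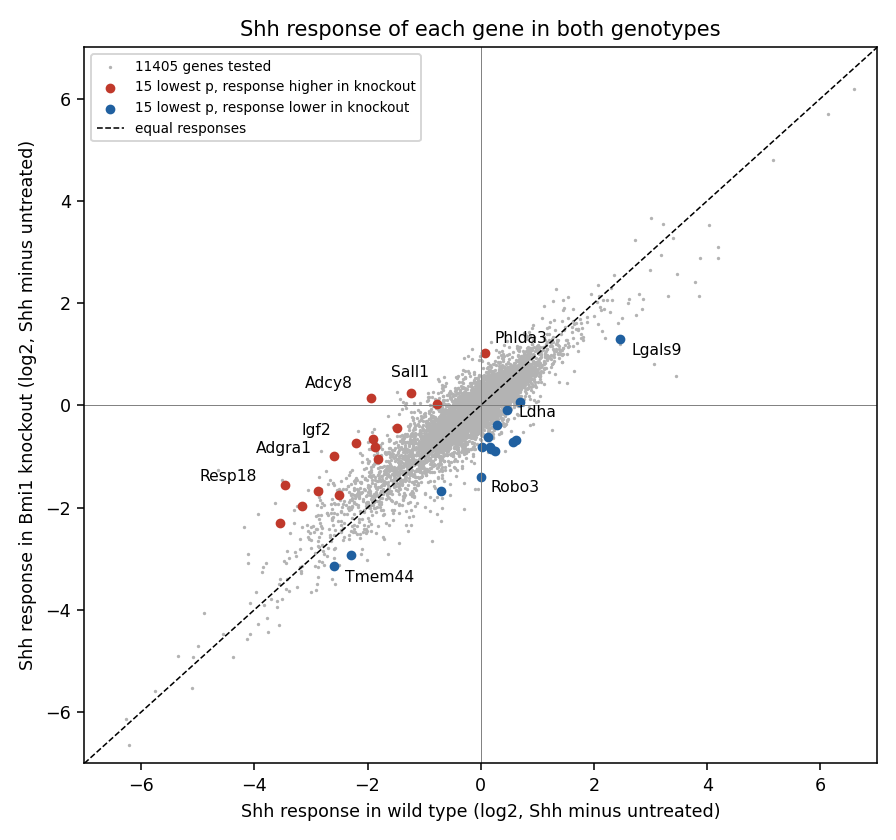
Shh response of each of the 11405 tested genes in wild type (horizontal axis, log2 with Shh minus untreated) and in the Bmi1 knockout (vertical axis, same unit); the dashed line marks equal responses. Red and blue points are the 15 genes with the lowest interaction p in each direction, and only Igf2 passes the adjusted threshold (adjusted p 0.0382).

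Igf2, an imprinted growth factor that supports the growth of granule precursors alongside Shh, fell less with Shh in the knockout. Its signal was 642, 565 and 635 on the untreated wild type arrays, 138 and 129.6 on the wild type arrays with Shh, 647, 751 and 680.3 on the untreated knockout arrays and 426 and 404 on the knockout arrays with Shh. The untreated knockout arrays lay just above the untreated wild type ones, whereas with Shh the knockout lay 3.11-fold above wild type. Igf2 fell 4.59-fold in wild type (adjusted p = 2.39e-06) and 1.67-fold in the knockout (adjusted p = 0.00103). The difference between the responses was 1.46 on the log2 scale (SE 0.15, 95% interval 1.13 to 1.79, adjusted p = 0.0382). Untreated knockout and wild type differed by 0.17 (adjusted p = 0.691). The other Igf2 probe set was dim, with a mean log2 signal of 4.43, and did not pass the filter. Across 22 alternatives the difference stayed above 0 (0.68 to 1.52) and the call held in 4 of them. It was lost without any single array, replicates 1 to 10 each in turn (adjusted p 0.0640 to 0.297), with the replicate block of consecutive numbers (0.387) and with a term for Xist above Eif2s3y (0.129).

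A stretch of the Igf2 promoter region is shown because Igf2 is the gene that carries the called difference. RefSeq lists 4 start windows for Igf2, and the window below (chr7:142658755-142659054, minus strand, build GRCm38.p6) was picked after the values were seen, as the one that held any of the searched motifs. The windows run from 250 bases before a start to 50 after it. Capitals mark matches, on either strand, to ACGTG, the core of the hypoxia response element, and to GAAANNGAAA, the interferon-stimulated response element. The Gli motif GACCACCCA had 0 matches in the 4 windows of Igf2.

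Igf2: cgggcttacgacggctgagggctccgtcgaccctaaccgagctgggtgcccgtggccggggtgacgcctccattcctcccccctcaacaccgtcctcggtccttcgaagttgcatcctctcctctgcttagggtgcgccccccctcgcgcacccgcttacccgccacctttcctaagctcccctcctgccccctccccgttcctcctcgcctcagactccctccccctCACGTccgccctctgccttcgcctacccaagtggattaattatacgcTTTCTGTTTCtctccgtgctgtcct

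Among all 32851 windows, 19.62% held ACGTG, 3.44% held GAAANNGAAA and 0.25% held GACCACCCA. ACGTG also lies within CACGTG, the E-box bound by Myc and Clock family factors, so a match does not point to 1 factor. A match is a description of letters and not of binding.

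**Figure D3:**
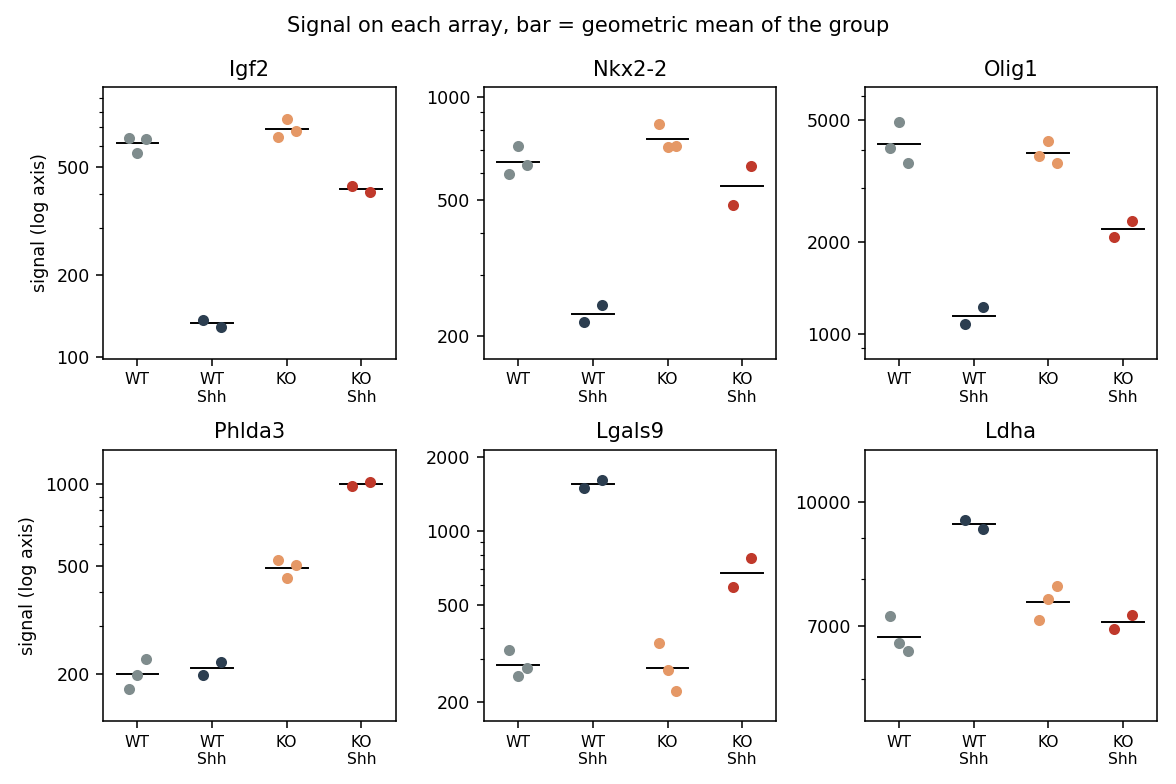
Signal of 6 genes on each array (vertical axes, log scale), by group on the horizontal axes (WT, wild type; KO, Bmi1 knockout; each untreated or with Shh); points are arrays and bars the geometric mean of the 2 or 3 arrays. Igf2, Nkx2-2 and Olig1 are lower with Shh in wild type than in the knockout, Phlda3 is higher with Shh in the knockout alone, and Lgals9 and Ldha are higher with Shh in wild type than in the knockout.

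The 14 genes next to Igf2 in the positive direction all missed the adjusted threshold (adjusted p 0.444 to 0.478), so the values that follow describe them and do not call a difference. Most of them fell with Shh: 14 of these 15 genes, Igf2 included, were called lower in wild type and 11 in the knockout. These counts come from the same arrays that chose the genes. Called falls made up 19.8% of all tested genes in wild type and 17.0% in the knockout. Adgra1 signal was 336, 383 and 364 in untreated wild type and 76.2 and 46.9 with Shh, against 339, 356 and 356 in untreated knockout and 191 and 160.4 with Shh, a difference of 1.59 (SE 0.26, adjusted p = 0.444). Adgrb2, an adhesion receptor of the brain angiogenesis inhibitor family, gave 1842, 1767 and 1922 in untreated wild type and 316 and 337 with Shh, against 1711, 1587 and 1549 in untreated knockout and 492 and 460.3 with Shh, with a difference of 0.73 (SE 0.13, adjusted p = 0.444). For Adgrb2 the untreated knockout arrays lay below the untreated wild type ones.

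For 4 of these 15 genes the knockout response was not below 0: Adcy8, Sall1, Cspg4 and Phlda3, the last pair of which is described with its gene lists. Adcy8, a calcium-stimulated adenylyl cyclase, gave 162, 334 and 217 in untreated wild type and 46.2 and 75.5 with Shh, against 260.3, 319 and 308 in untreated knockout and 325 and 328 with Shh, and its difference of 2.09 (SE 0.41, adjusted p = 0.444) was the largest of the 15. Sall1, a zinc finger transcription factor, gave 208, 261 and 233 in untreated wild type and 97.5 and 100.1 with Shh, against 189, 228 and 178 in untreated knockout and 295 and 185 with Shh, with a difference of 1.48 (SE 0.28, adjusted p = 0.444). Both fell in wild type (responses -1.95 and -1.24), and neither change in the knockout passed the test (0.15, adjusted p = 0.739, and 0.24, adjusted p = 0.388). Fndc1, a fibronectin type III domain protein, and Resp18, a protein of the regulated secretory pathway, lay at the signal floor of 20.9 on both wild type Shh arrays, so their wild type falls (7.38-fold and 10.9-fold) and their differences (1.22 and 1.89) are lower bounds on this floor. With the floor at the median of all signals, which lies above all 4 Fndc1 signals with Shh, the Fndc1 difference was -0.33. With Shh their knockout signals were 57.8 and 63.9 for Fndc1 and 73.5 and 109 for Resp18. Grm5, a metabotropic glutamate receptor, fell by 3.54 in wild type and by 2.30 in the knockout on the log2 scale. Syne1, a nuclear envelope spectrin-repeat protein, changed by -1.90 and -0.66, Acsbg1, an acyl-CoA synthetase, by -3.15 and -1.98, and Scrg1 by -1.82 and -1.04.

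In the negative direction the 15 genes with the lowest p again missed the threshold (adjusted p 0.444 to 0.686). Here most genes fell in the knockout: 13 of the 15 responses were below 0 in the knockout, 12 of them called, against 4 and 3 in wild type. These genes were chosen for a lower response in the knockout, so the counts are no test. Called falls made up 17.0% of all tested genes in the knockout and 19.8% in wild type. Plaat1 signal was 147, 125 and 129 in untreated wild type and 79.6 and 85.1 with Shh, against 189.6, 175 and 173 in untreated knockout and 50.9 and 62.3 with Shh, with a difference of -0.98 (SE 0.17, adjusted p = 0.444). Tmem94 gave 229, 215 and 204 in untreated wild type and 222 and 251 with Shh, against 273, 264 and 265 in untreated knockout and 162 and 185 with Shh, a difference of -0.76 (SE 0.15, adjusted p = 0.444). The Plaat1 fall was called in both genotypes, and the Tmem94 fall in the knockout (response -0.63) but not in wild type (0.13). The other Plaat1 probe set, also above the filter, had responses of -1.86 in wild type and -1.75 in the knockout (difference 0.11).

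Of the 2597 genes called in both genotypes, 2 moved in opposite directions, and both are among these 15. Sgsm1, a modulator of small G proteins, rose in wild type (response 0.62, adjusted p = 0.0191) and fell in the knockout (-0.67, adjusted p = 0.0171), with signals of 143, 194 and 156 in untreated wild type and 276 and 229 with Shh, against 274, 251 and 209 in untreated knockout and 142 and 165 with Shh. Fcgr1, an activating receptor for immunoglobulin G on macrophages, gave 87.5, 107 and 79.3 in untreated wild type and 138 and 132 with Shh, against 124, 81.4 and 113 in untreated knockout and 70.9 and 57.1 with Shh, with responses of 0.58 (adjusted p = 0.0493) and -0.72 (adjusted p = 0.0247). For both genes the untreated groups overlapped or lay in the reverse order to the Shh groups. The same arrays chose these genes, so this order is a description. Their differences, -1.29 and -1.29, had adjusted p of 0.444 and 0.514. Robo3, a guidance receptor of commissural axons, lay at the floor on all 5 wild type arrays, so no wild type response was measured. In the knockout its signal was 421, 609 and 762 untreated and 219.9 and 222 with Shh, a fall of 1.39 on the log2 scale (adjusted p = 0.00115). Tmem44 lay at the floor on both knockout Shh arrays, so its knockout fall is a lower bound. Ifngr2, a chain of the interferon gamma receptor, Klhdc8b and Smim10l2a fell in the knockout (responses -0.81, -0.85 and -0.90) with wild type responses of 0.16, 0.18 and 0.24, which did not pass the test.

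The 561 genes at an unadjusted p under 0.05 fell into the following patterns by sign alone. Among the 328 positive ones, 198 were lower with Shh in both genotypes, 105 were lower in wild type and higher in the knockout, and 25 were higher in both. Among the 233 negative ones, 89 were higher in both, 79 were lower in both, and 65 were higher in wild type and lower in the knockout. Gene lists are described next by their counts and medians. Apart from Igf2, no member of any list passed the adjusted threshold. The background over all tested genes is a median difference of 0.00, with 2.88% positive and 2.04% negative at an unadjusted p under 0.05. Over all tested genes, 14.0% were called higher and 19.8% lower with Shh in wild type, and 11.0% and 17.0% in the knockout.

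The direct Shh targets had members with differences on both sides. An unadjusted p under 0.05 was found for 2 positive (Igf2 and Nkx2-2) and 2 negative (Gli1 and Boc) of the 12 tested. This is 33.3%, against 4.92% of all genes, and Igf2 alone passed the adjusted threshold. The list was drawn up with earlier results of these data known, so the share is a description and no test. Of the 12 tested genes (14 listed), 5 rose and 2 fell in wild type and 4 rose and 2 fell in the knockout, and the median responses were 0.32 and 0.30 (median difference -0.05, a sign that held in 19 of 24 settings). Ptch1, the Shh receptor, gave 4108, 4295 and 4065 in untreated wild type and 8376 and 8013 with Shh, against 5228, 4787 and 4686 in untreated knockout and 9753 and 8809 with Shh. Its responses of 0.98 and 0.92 differed by -0.06 (95% interval -0.36 to 0.24). Mycn, the N-Myc factor that carries Shh signals to the cell cycle, rose by 0.55 and 0.50, with a difference of -0.05 (95% interval -0.48 to 0.39).

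Gli1, the transcription factor that reports pathway activity, gave 853, 764 and 857 in untreated wild type and 1665 and 1745 with Shh, against 1193, 1156 and 1199 in untreated knockout and 1987 and 1550.1 with Shh. It rose in both genotypes (1.05 and 0.57), with a difference of -0.48 (SE 0.17, unadjusted p = 0.0179, adjusted p = 0.902). The knockout started higher without Shh (1156 to 1199 against 764 to 857), and the treated groups overlapped. Boc, a Shh co-receptor, had the same order of groups, with 1098, 992 and 1171 in untreated wild type and 1624 and 1578 with Shh, against 1411, 1486 and 1472 in untreated knockout and 1699 and 1605 with Shh and a difference of -0.38 (SE 0.14, unadjusted p = 0.0212, adjusted p = 0.933). Ccnd1, cyclin D1, rose by 0.86 and 0.51 (difference -0.35, unadjusted p = 0.0994). Both falling targets had positive differences at an unadjusted p under 0.05: Igf2 and Nkx2-2, a ventral neural homeobox factor also used in oligodendrocytes. Nkx2-2 signal was 593, 719 and 629 in untreated wild type and 219.8 and 245 with Shh, against 831, 711 and 715 in untreated knockout and 483 and 625 with Shh, with a difference of 1.03 (SE 0.20, adjusted p = 0.444). Ccnd2, cyclin D2, gave responses of 0.37 and 0.36, Hhip, a Shh-binding inhibitor, 0.07 and 0.41, Cdon, a co-receptor, -0.31 and -0.39, Gas1, another co-receptor, -0.14 and -0.21, and Sfrp1, a Wnt antagonist, 0.26 and 0.24. None of these 5 passed the test in either genotype. The signalling machinery upstream (cilium, kinase and receptor genes, 22 of 28 tested) had a median difference of -0.05, with 0 genes at an unadjusted p under 0.05 in either direction.

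Most listed cell cycle genes rose with Shh in wild type, a smaller number passed the test in the knockout, and the estimated difference was below 0 for nearly all members. Of the 48 tested genes (50 listed) of G1/S and DNA replication, 36 rose in wild type and 13 in the knockout, with medians of 0.48 and 0.23. Called rises made up 14.0% of all tested genes in wild type and 11.0% in the knockout. Such counts of calls do not measure the difference between genotypes. The difference was negative for 47 of the 48 (median -0.23) and had an unadjusted p under 0.05 for 6 of them, all negative. Of the 55 tested genes (56 listed) of G2/M and mitosis, 45 rose in wild type and 34 in the knockout (medians 0.56 and 0.44). The difference was negative for 50 of 55 (median -0.22), with 8 negative and 0 positive at an unadjusted p under 0.05. The members share the state of the cell cycle and are not independent of each other, and their counts are no test. The median was below 0 in all 24 settings for both lists, from -0.30 to -0.14 for G1/S and from -0.27 to -0.12 for G2/M.

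Chek1, the DNA damage checkpoint kinase that is made in S phase, gave 834, 795 and 759 in untreated wild type and 1677 and 1578 with Shh, against 863, 882 and 843 in untreated knockout and 1335 and 1228 with Shh, a difference of -0.46 (SE 0.13, adjusted p = 0.686). Tacc3, a spindle protein, gave 1024, 893 and 1095 in untreated wild type and 1528 and 1705 with Shh, against 1168, 1198 and 1086 in untreated knockout and 1151 and 1249.8 with Shh, a difference of -0.63 (SE 0.16, adjusted p = 0.686). For both genes the wild type arrays with Shh lay above all others, on the same arrays that chose these genes. Another bright Chek1 probe set did not have the smaller knockout rise, with responses of 0.77 and 0.88 (difference 0.10). A dimmer Chek1 probe set above the filter had a difference of -0.47. Pold1, the catalytic subunit of DNA polymerase delta, rose in wild type (0.59, adjusted p = 0.00225). Its knockout response was 0.16 (adjusted p = 0.291), with a difference of -0.43 (SE 0.14, adjusted p = 0.822). The other Pold1 probe set, about as bright, had a difference of -0.17. Bub1b, a spindle checkpoint kinase, gave 0.56 and 0.18 with a difference of -0.39 (SE 0.13, adjusted p = 0.822), while Plk1, the mitotic Polo kinase, rose in both genotypes (1.40 and 1.00). The wider p53 regulator and DNA damage list, 26 of 30 tested, had 23 of 26 differences below 0 (median -0.19), with 4 negative and 0 positive at an unadjusted p under 0.05. D cyclins, their kinases and the Rb and E2F genes had a median of -0.06, with Rbl1, the pocket protein p107, at -0.42 (SE 0.13, adjusted p = 0.805) and E2f2 at -0.37 (SE 0.14, adjusted p = 0.933). A dimmer E2f2 probe set above the filter had a difference of 0.20.

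Inhibitors of cyclin-dependent kinases did not share a direction. All 7 of 7 were tested, with 2 positive and 5 negative differences. Cdkn2a, signals given above, had a response of -0.38 in wild type and 0.45 in the knockout, neither of which passed the test, and a difference of 0.83 (SE 0.26, adjusted p = 0.805). Cdkn1a, the p53-induced inhibitor p21, gave 1184, 946 and 823 in untreated wild type and 2439 and 2870.0 with Shh, against 4817, 4186 and 5503 in untreated knockout and 8750.3 and 8551 with Shh. It rose in both genotypes (1.44 and 0.85), from a knockout start above every wild type array, with a difference of -0.59 (SE 0.24, adjusted p = 0.981). Cdkn2d, the inhibitor p19Ink4d, rose by 0.85 and 0.60. Cdkn1b, Cdkn1c, Cdkn2b and Cdkn2c had differences of 0.28, -0.44, -0.92 and -0.12 with an unadjusted p of 0.171, 0.0889, 0.315 and 0.412. Cdkn2b lay at the floor on replicate 5, and its SE was 0.87.

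Targets of p53 had a median difference above 0, the reverse sign to the cycle genes. Of the 35 tested genes (40 listed), 14 rose and 4 fell with Shh in wild type and 21 rose and 3 fell in the knockout. The median response was 0.26 in wild type and 0.48 in the knockout, 26 of 35 differences were positive (median 0.11), and 4 positive and 1 negative had an unadjusted p under 0.05. The negative one was Cdkn1a, given above, whose difference of -0.59 was the lowest of the list. Phlda3, a p53 target that inhibits Akt, gave 175, 198 and 227 in untreated wild type and 198 and 221 with Shh, against 524, 451 and 504 in untreated knockout and 982 and 1021 with Shh. Wild type arrays with and without Shh overlapped, and the knockout rose from a level already above wild type (1.03, adjusted p = 5.54e-04), with a difference of 0.95 (SE 0.18, adjusted p = 0.444). Eda2r, a death-domain receptor of the TNF receptor family and p53 target, rose in both genotypes, from 219, 249 and 225 to 433 and 379 in wild type and from 632, 599 and 657 to 1689.6 and 1525 in the knockout, with a difference of 0.54 (SE 0.15, adjusted p = 0.686). Sulf2, a heparan sulfate sulfatase, fell in wild type (-1.11), and its knockout response of -0.09 did not pass the test. The arrays with Shh lay at 449.5 and 408 in wild type and 997 and 1565 in the knockout.

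Most interferon-stimulated and MHC class I genes rose steeply in both genotypes, with the smaller median rise in the knockout. Of the 27 tested genes (36 listed), 22 rose in wild type and 19 in the knockout, where 1 fell, with median responses of 2.36 and 1.70. The difference was negative for 25 of 27 (median -0.47), with 8 negative and 0 positive at an unadjusted p under 0.05. The median stayed between -0.59 and -0.38 in all 24 settings. Lgals9, the interferon-induced lectin galectin-9, gave 326, 254 and 275 in untreated wild type and 1502 and 1618 with Shh, against 349, 269.7 and 221 in untreated knockout and 588 and 777 with Shh, a difference of -1.16 (SE 0.28, adjusted p = 0.668). Irgm1, an interferon-induced GTPase of cell-autonomous immunity, gave 170.0, 202 and 236 in untreated wild type and 1551 and 1380.0 with Shh, against 159, 175 and 199 in untreated knockout and 730.2 and 771 with Shh, a difference of -0.78 (SE 0.21, adjusted p = 0.686). Untreated groups overlapped for both genes, and the knockout arrays with Shh lay below the wild type ones, on the same arrays that chose these genes.

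Ifi27 and Ifi35, interferon-induced genes, had the same order. Ifi27 gave 123, 139 and 138 in untreated wild type and 1817 and 2071 with Shh, against 139, 107 and 184 in untreated knockout and 899 and 1203 with Shh, a difference of -0.98 (SE 0.30, adjusted p = 0.805), and Ifi35 gave 344, 248 and 302 in untreated wild type and 1596 and 1750.3 with Shh, against 277, 321 and 255 in untreated knockout and 784 and 1082 with Shh, a difference of -0.80 (SE 0.25, adjusted p = 0.807). Microglia and macrophages carry part of this programme, and their marker sum was also lower in the knockout with Shh. The summed signal of the 19 tested microglia and macrophage markers was 10617 to 15309 in untreated wild type, 9502 to 9709 in wild type with Shh, 9119 to 10283 in untreated knockout and 6101 to 8096 in knockout with Shh. The list itself split, with 9 positive and 10 negative differences and a median of -0.05 (-0.29 to 0.15, the same sign in 18 of 24 settings). With Shh 5 of its genes rose and 8 fell in wild type, and 6 rose and 8 fell in the knockout. The 3 members at an unadjusted p under 0.05 were the C1q complement genes, all negative and chosen here for that p: C1qa fell by 1.16 in wild type and 1.96 in the knockout on the log2 scale, a difference of -0.80 (SE 0.21, adjusted p = 0.686), and C1qb and C1qc had differences of -0.81 and -0.68. In bulk RNA, fewer cells of a type and less RNA per cell cannot be told apart, and the part of macrophages in the interferon values was not tested.

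The promoter windows of Lgals9 (chr11:78984875-78985174, minus strand) and Irgm1 (chr11:48871371-48871670, minus strand), from RefSeq on GRCm38.p6, are shown because these genes had the lowest interaction p of the list. They were chosen after the values were seen. Capitals mark GAAANNGAAA on either strand, 2 matches in each window, which overlap in Irgm1.

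Lgals9: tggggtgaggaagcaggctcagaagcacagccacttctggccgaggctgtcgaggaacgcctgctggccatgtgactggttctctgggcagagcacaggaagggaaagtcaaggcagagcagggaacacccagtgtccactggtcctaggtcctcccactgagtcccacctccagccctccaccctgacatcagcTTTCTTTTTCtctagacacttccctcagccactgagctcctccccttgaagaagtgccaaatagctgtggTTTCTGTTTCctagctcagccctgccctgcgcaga
Irgm1: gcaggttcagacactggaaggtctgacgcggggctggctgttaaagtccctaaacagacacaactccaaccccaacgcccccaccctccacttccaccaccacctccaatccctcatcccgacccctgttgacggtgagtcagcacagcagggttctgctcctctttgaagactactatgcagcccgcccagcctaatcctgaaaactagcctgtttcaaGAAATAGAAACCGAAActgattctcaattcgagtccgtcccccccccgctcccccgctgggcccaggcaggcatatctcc

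The motif was present in windows of 11 of the 23 list genes that have a window (47.83%), against 3.99% of all 27025 genes. The Ifi35 window held 0 matches, and Ifi27 is not among the windows used here.

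Glycolysis and hypoxia genes had median responses of opposite sign in the genotypes. Of the 23 tested genes (29 listed), 7 rose and 3 fell in wild type, whereas 1 rose and 8 fell in the knockout, with median responses of 0.13 and -0.22. The difference was negative for 18 of 23 (median -0.26, between -0.32 and -0.20 in all 24 settings), with 6 negative and 1 positive at an unadjusted p under 0.05. Ldha, the lactate dehydrogenase subunit of active glycolysis, gave 7199, 6662 and 6505 in untreated wild type and 9492 and 9249.9 with Shh, against 7108, 7566 and 7857 in untreated knockout and 6935 and 7226 with Shh. It rose in wild type (0.47, adjusted p = 0.00427), its knockout response was -0.08 (adjusted p = 0.533), and the difference was -0.55 (SE 0.13, adjusted p = 0.590).

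Bnip3, a mitochondrial protein induced by hypoxia, gave 1743, 1992 and 1717 in untreated wild type and 2355 and 2065 with Shh, against 1725, 1739 and 1964 in untreated knockout and 1337 and 1422 with Shh, a difference of -0.67 (SE 0.16, adjusted p = 0.590). Pfkl, the liver-type phosphofructokinase, gave 1363, 1485 and 1304 in untreated wild type and 1432 and 1364 with Shh, against 1381, 1484 and 1936 in untreated knockout and 866 and 938 with Shh, a difference of -0.83 (SE 0.20, adjusted p = 0.676). Both fell in the knockout (-0.39 and -0.81), and their wild type responses (0.28 and 0.02) did not pass the test. The positive member was Aldoc, an aldolase that is also an astrocyte marker, which fell in both genotypes (-1.69 and -0.93) with a difference of 0.76 (SE 0.20, adjusted p = 0.686).

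The windows of Ldha (chr7:46845554-46845853, plus strand) and Bnip3 (chr7:138909457-138909756, minus strand), from RefSeq on GRCm38.p6, are shown because these genes led the list, again chosen after their values were seen. Capitals mark ACGTG on either strand. Where CACGTG is capitalised the motif is present on both strands, and those letters are also an E-box.

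Ldha: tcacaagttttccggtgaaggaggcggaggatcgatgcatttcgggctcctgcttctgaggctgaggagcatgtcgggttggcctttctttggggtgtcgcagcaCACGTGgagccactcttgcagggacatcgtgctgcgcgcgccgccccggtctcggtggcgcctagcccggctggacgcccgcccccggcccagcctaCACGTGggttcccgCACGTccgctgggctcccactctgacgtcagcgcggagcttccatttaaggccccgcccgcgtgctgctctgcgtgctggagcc
Bnip3: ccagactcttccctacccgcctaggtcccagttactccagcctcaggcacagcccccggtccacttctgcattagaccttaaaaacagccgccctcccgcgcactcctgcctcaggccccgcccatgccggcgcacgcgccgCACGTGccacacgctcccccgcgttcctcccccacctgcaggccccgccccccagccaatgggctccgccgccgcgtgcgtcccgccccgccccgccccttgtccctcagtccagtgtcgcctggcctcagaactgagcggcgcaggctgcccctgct

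ACGTG was present in windows of 17 of the 21 list genes that have a window (80.95%), against 21.78% of all 27025 genes. The Pfkl window and the other Ldha window held 0 matches.

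**Figure D4:**
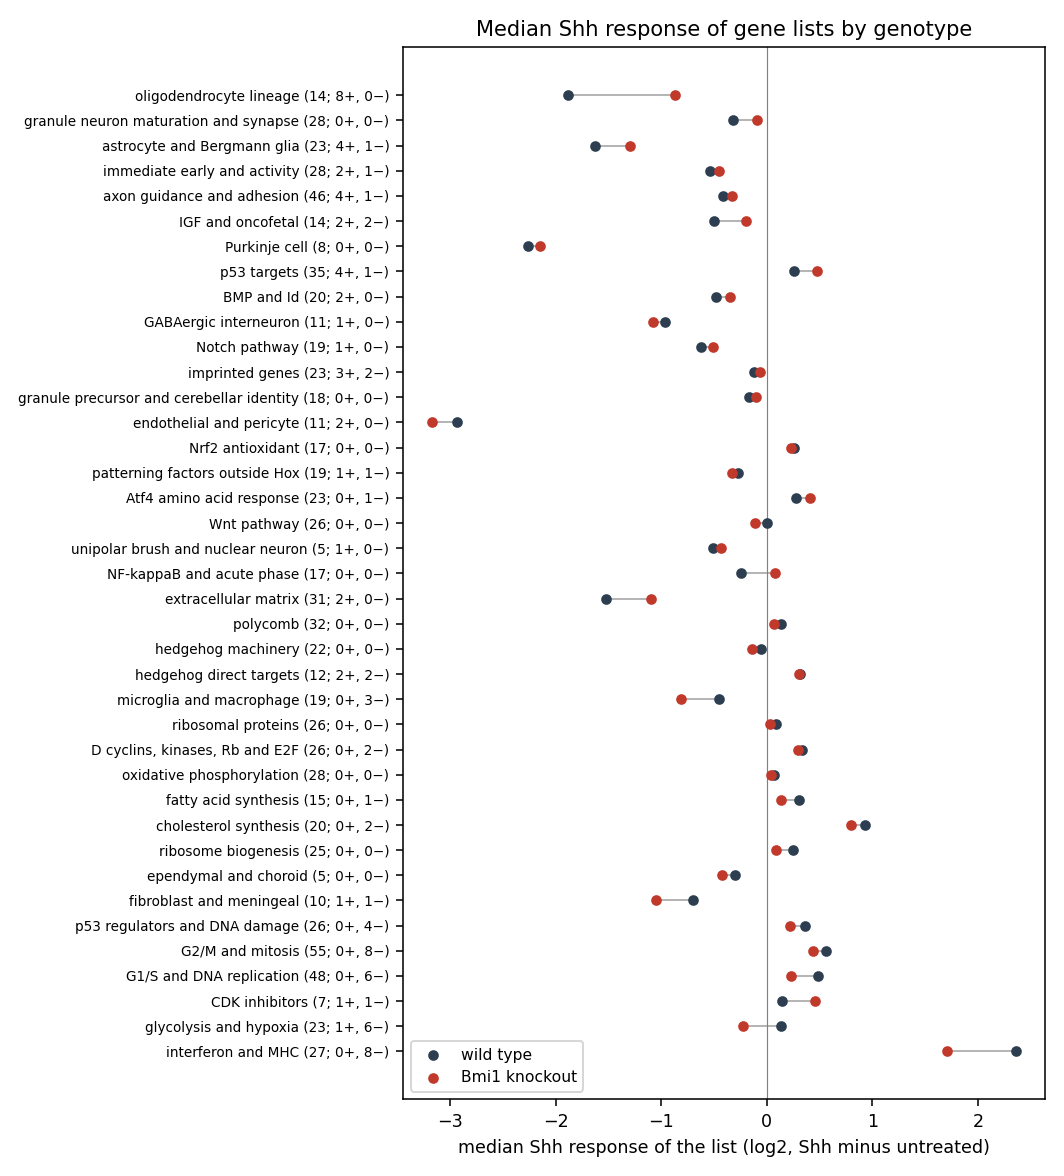
Median Shh response (horizontal axis, log2 with Shh minus untreated) of the tested members of each gene list in wild type and in the Bmi1 knockout, ordered by the median difference; in parentheses stand the number of tested genes and the numbers with a positive (+) and a negative (−) difference at an unadjusted p under 0.05. The oligodendrocyte list has medians of -1.89 and -0.87 and the interferon list 2.36 and 1.70; lists with 1 tested gene are left out.

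Most oligodendrocyte lineage genes, markers of the myelinating glia and their precursors, fell with Shh in both genotypes, with the smaller median fall in the knockout. Of the 14 tested genes (19 listed), 12 fell in wild type and 9 in the knockout, and 1 rose in each, with median responses of -1.89 and -0.87. The difference was positive for 13 of 14 (median 0.56, between 0.46 and 0.88 in all 24 settings), with 8 positive and 0 negative at an unadjusted p under 0.05. Olig1, a lineage-defining bHLH factor, gave 4048, 4943 and 3619.7 in untreated wild type and 1078 and 1224 with Shh, against 3829.6, 4264 and 3612 in untreated knockout and 2075 and 2339 with Shh, a difference of 1.04 (SE 0.21, adjusted p = 0.444). Cspg4, the NG2 proteoglycan of oligodendrocyte precursors, gave 192, 181 and 169 in untreated wild type and 99.2 and 111 with Shh, against 235, 219 and 232 in untreated knockout and 216 and 253 with Shh, a difference of 0.81 (SE 0.15, adjusted p = 0.444). For both genes the wild type arrays with Shh lay below all others, on the same arrays that chose these genes. For Cspg4 the knockout arrays with and without Shh overlapped.

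Sox10, a transcription factor of oligodendrocytes, gave 954, 784 and 806 in untreated wild type and 209 and 177 with Shh. In the knockout it gave 911, 891 and 850.1 untreated and 374 and 581 with Shh, a difference of 1.21 (SE 0.25, adjusted p = 0.498). Probe sets of Sox10 did not agree. Another one above the filter had responses of -0.70 and -0.72 (difference -0.02), and a dimmer one below the filter a difference of 1.64. Mobp, a myelin protein, gave 989, 1076 and 1059 in untreated wild type and 69.1 and 66.3 with Shh, against 347, 1071 and 533 in untreated knockout and 104 and 171 with Shh, a difference of 1.81 (SE 0.55, adjusted p = 0.805), with a wide spread between the untreated knockout arrays. The summed signal of the 14 tested markers was 44153 to 47323 in untreated wild type, 16997 to 17883 in wild type with Shh, 37184 to 47863 in untreated knockout and 20461 to 25656 in knockout with Shh. These cells were thus a measured part of the cultures. Nkx2-2, listed above as a Shh target, is expressed in this lineage as well, and the part of these cells in its value was not tested.

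Astrocyte and Bergmann glia markers also had the smaller median fall in the knockout. Of the 23 tested genes (24 listed), 17 fell in each genotype, with medians of -1.63 and -1.30, 20 of 23 differences were positive (median 0.23), and 4 positive and 1 negative had an unadjusted p under 0.05. The differences ran from -1.28 to 1.03, so the largest in size was negative. The genes described next are positive ones with a low p. Gdf10, a BMP family ligand of Bergmann glia, gave 5403, 6457 and 5242 in untreated wild type and 309 and 353 with Shh, against 6027, 5547 and 6209 in untreated knockout and 852 and 576 with Shh, a difference of 1.03 (SE 0.24, adjusted p = 0.590). Sparcl1, a matricellular glycoprotein of astrocytes, fell by 2.13 in wild type and 1.50 in the knockout with a difference of 0.63 (SE 0.15, adjusted p = 0.590), and Gja1, the gap junction protein connexin 43, fell by 2.02 and 1.05 with a difference of 0.96 (SE 0.32, adjusted p = 0.822). The summed signal of the list was 114030 to 133080 in untreated wild type, 66590 to 69938 in wild type with Shh, 120890 to 125130 in untreated knockout and 75574 to 80483 in knockout with Shh.

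Other cell types gave smaller or mixed differences. Endothelial and pericyte markers fell in both genotypes (10 of 11 tested in each), with medians of -2.93 and -3.17, and their summed signal was 8645 to 9825 in untreated wild type, 809.8 to 827 in wild type with Shh, 8670 to 10561 in untreated knockout and 949 to 1002 in knockout with Shh. Abcc9, a potassium channel subunit of pericytes, lay at the floor on both wild type Shh arrays, so its difference of 0.84 is a lower bound. A dimmer Abcc9 probe set above the filter had a difference of -0.03. Fibroblast and meningeal markers had a summed signal of 6458 to 7797 in untreated wild type, 6291 to 6356 in wild type with Shh, 6683 to 7661 in untreated knockout and 5908 to 5918 in knockout with Shh and a median difference of -0.19 (-0.35 to 0.06, the same sign in 23 of 24 settings). Of the 10 tested genes (18 listed), 3 differences were positive and 7 negative, with 1 of each at an unadjusted p under 0.05. The negative one was Dcn, the matrix proteoglycan decorin, which fell by 0.99 and 2.00 (unadjusted p of the difference = 0.0113), and the positive one Igfbp2, described below with the IGF axis. The largest positive difference was that of Ptgds, a prostaglandin synthase of the meninges, which gave 297, 607 and 245 in untreated wild type and 409 and 394 with Shh, against 237, 158 and 169 in untreated knockout and 438 and 432 with Shh, a difference of 1.05 (SE 0.47, unadjusted p = 0.0523). Meningeal and vessel cells are among the cells that make Igf2, and their part in the Igf2 value was not tested. Purkinje cell, GABAergic interneuron, unipolar brush and nuclear neuron, and ependymal and choroid lists had medians of 0.12, 0.09, 0.00 and -0.12, with 0, 1, 1 and 0 genes at an unadjusted p under 0.05, all of them positive (Slc6a5, a glycine transporter, and Prox1, a homeobox factor). A dimmer Prox1 probe set above the filter had a difference of -0.15.

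Genes of granule neuron maturation and synapses had differences of mostly 1 sign, with no single gene at an unadjusted p under 0.05. Of the 28 tested genes (40 listed), 12 fell in wild type and 7 in the knockout, where 2 rose, with medians of -0.32 and -0.09. The difference was positive for 26 of 28 (median 0.24, between 0.18 and 0.31 in all 24 settings). Camk4, a calcium-dependent kinase of granule neurons, gave 1804, 1880.1 and 1743 in untreated wild type and 1672 and 1316 with Shh, against 1869.5, 1542 and 1692 in untreated knockout and 1732 and 1899 with Shh, a difference of 0.38 (SE 0.18, unadjusted p = 0.0635). Dimmer Camk4 probe sets above the filter had differences of -0.09 and 0.29. Slc17a6, the vesicular glutamate transporter VGLUT2, fell in wild type (-0.52), and its knockout response was -0.08 (adjusted p = 0.768). Granule precursor and cerebellar identity genes, 18 of 21 tested, had a median difference of 0.05 and 0 genes at an unadjusted p under 0.05.

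Axon guidance and adhesion genes had 34 of 46 differences above 0 (median 0.16), with 4 positive and 1 negative at an unadjusted p under 0.05. Nrp1, a semaphorin and VEGF co-receptor, gave 413, 532 and 464 in untreated wild type and 161 and 162 with Shh, against 399.5, 462 and 576 in untreated knockout and 276 and 293 with Shh, a difference of 0.79 (SE 0.23, adjusted p = 0.717). Plxna2, a semaphorin receptor, fell in wild type (-0.68), and its knockout response was -0.13 (adjusted p = 0.516). The negative one was Robo3, given above. BMP and Id genes had 14 of 20 differences above 0 (median 0.09), with Gdf10 and Id4, an inhibitor of bHLH factors that fell by 1.98 and 1.30, at an unadjusted p under 0.05. Notch pathway genes had a median of 0.07, with Notch3, a receptor of mural cells, at 0.61 (SE 0.26, adjusted p = 0.981). A dimmer Notch3 probe set above the filter had the opposite sign, with responses of -1.82 and -2.26 (difference -0.44). Wnt pathway genes had a median of 0.00 and 0 genes at an unadjusted p under 0.05.

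Polycomb genes themselves gave no difference at an unadjusted p under 0.05 among 32 of 35 tested (median -0.03). Bmi1 had responses of 0.13 and -0.07, neither of which passed the test. Its other bright probe set had responses of 0.16 and 0.16 (difference -0.001). Pcgf5, a paralog of Bmi1, rose in wild type (0.65, adjusted p = 0.0212), and its knockout response was 0.10 (adjusted p = 0.705), with a difference of -0.55 (SE 0.25, unadjusted p = 0.0581). Of the Hox clusters, classical Polycomb targets, 33 of 39 listed genes were on the array and 1 passed the brightness filter. This was Hoxa5, with a difference of 0.41 (SE 0.31, unadjusted p = 0.217). Its other probe set above the filter had a difference of 0.07. Patterning factors outside the Hox clusters had a median of 0.02, with Nkx2-2 positive and Otx1, a forebrain and midbrain homeobox factor, negative at -0.52 (SE 0.22, adjusted p = 0.981).

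Genes of the IGF axis other than Igf2 had differences in both directions. Igfbp4, an IGF-binding protein, gave 3303, 2864 and 3006 in untreated wild type and 664 and 588 with Shh, against 2574, 2875 and 2939 in untreated knockout and 342 and 391 with Shh and fell in both genotypes (-2.29 and -2.93), with a difference of -0.64 (SE 0.16, adjusted p = 0.686). Its other probe sets above the filter had differences of 0.15, -0.93, -0.29 and -0.81. Igfbp2, another binding protein, gave 1589, 1970.3 and 1351 in untreated wild type and 406 and 423 with Shh, against 1799, 1758 and 1529.5 in untreated knockout and 622 and 695 with Shh and fell in both genotypes as well (-1.96 and -1.36), with a difference of 0.60 (SE 0.22, adjusted p = 0.933). Igf2bp3, an RNA-binding protein of Igf2 transcripts, rose in wild type (0.59), and its knockout response was 0.12 (adjusted p = 0.580), with a difference of -0.48 (SE 0.20, adjusted p = 0.981). Of the 14 tested genes of the list, 9 differences were positive and 5 negative.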

How the data were processed

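Expression was measured in 10 primary cultures on Affymetrix Mouse Genome 430 2.0 arrays. The authors deposited signal intensity on a linear scale, made with MAS5 in GCOS 1.2 per the submitters' processing notes, with no genome build given in the sources used here; the deposited table held 45101 probe sets. Controls (64) were left out. Of the others, 34945 carried 1 gene symbol, 932 several and 9160 none, and 34741 were matched by Entrez identifier to RefSeq GRCm38.p6, with 0 symbols changed. Arrays were used on the deposited scale. Signals below the 25th percentile (20.9, log2 4.39) were set to that value before log2 transformation. The brightest probe set stood for its gene, which was tested where the mean log2 signal reached the median of all probe sets (6.25, a signal of 76.1).

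All 10 arrays entered 1 linear model with a mean for each group, by the lmFit and eBayes functions of limma 3.58.1 (R 4.3.3; 6 residual and 3.11 prior degrees of freedom). Tests were two-sided, with Benjamini-Hochberg adjustment over 11405 genes and a threshold of 0.05. The steps were tested on simulated data. The arrays number 10, which limits the precision. The genes named are those past the threshold, the 15 lowest p in each direction, up to 4 of lowest p in each of 40 lists (31 pathways, 9 cell type marker lists), all Shh targets and CDK inhibitors, Bmi1, and genes with the largest average response. Members and lists were chosen with earlier results of these data known. The labels name no pairs. Deviations from the group mean were correlated for untreated arrays with consecutive numbers (0.278, 0.120 and 0.218, against -0.265 to 0.0529 for other pairings). Such deviations cancel out within a group, so positive values for some pairings push the others down, and this contrast is weak ground for a pairing. With Shh the values were 0.160 for consecutive numbers and -0.16 for the others. The arrays of each Shh group deviate by equal and opposite amounts, so these values cannot decide the pairing. A fit with consecutive numbers as a replicate block was run as an alternative, a pairing that rests on the data alone. The alternatives varied the scaling, floor, filter, probe set choice and prior, and left out arrays; a term for Xist above Eif2s3y was chosen after seeing the data.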

Additional observations from a re-analysis of the deposited data

Results flagged for a closer look

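The Shh response of Igf2 differed between the genotypes by the test of the difference itself, with a value of 1.46 on the log2 scale (knockout response minus wild type response; limma's interaction test, Benjamini-Hochberg adjusted p = 0.0382). The response was below 0 in both genotypes, and on both arrays with Shh of each genotype. No group held 4 or more arrays, so single arrays were not tested as outliers.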

How the results depend on the processing

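Igf2 was called with the floor at the 10th percentile (adjusted p = 0.0150, limma) or the median (0.00935) and with an intensity trend in the prior, plain (0.0307) or robust (0.0251). It missed the threshold with quantile normalization (0.256), median centring (0.181), a pseudocount of 32 (0.0594), no filter on dim genes (0.0504), the mean of probe sets (0.374) and every probe set on its own (0.125). It also missed it with the replicate block (0.387), without replicates 1 and 6 (0.406) and with the Xist term (0.129), and was not tested with the filter at the 75th percentile. The number of genes past the adjusted threshold was 3 with the floor at the 10th percentile (Abcc9, Fndc1 and Igf2) and 5 with the floor at the median (Adgra1, Igf2, Meis2, Oas2 and Oasl2). It was 0 with quantile normalization, median centring, the pseudocount, no filter, the 75th percentile filter, mean probe sets, single probe sets, the replicate block, replicates 1 and 6 left out, and the Xist term. Leaving out 1 array (a lone array was then taken to vary like the other groups) gave 0 to 2 genes, 2 (Adgra1 and Col2a1) without replicate 7 and 0 without each of the others. The count at an unadjusted p under 0.05 was 1007 with no filter, 286 with the 75th percentile filter, 869 with every probe set, 856 with the replicate block (3 residual degrees of freedom) and 471 to 652 without 1 array. Calls for Shh in wild type were 6433 with median centring, 2364 with the 75th percentile filter and 2416 to 3740 without 1 array (lowest without replicate 9). In the knockout they were 5489, 1935 and 1958 to 3178 (lowest without replicate 8, and 2073 without replicate 10). Median centring moved the median response of all genes to 0.33 in wild type and 0.29 in the knockout, so 5189 of the 6433 and 4363 of the 5489 calls were higher. The average response had 3352 calls with the 75th percentile filter, 8130 with every probe set and 4528 to 5222 without 1 array. The slope of knockout on wild type response was 0.831 without replicates 1 and 6 and 0.815 to 0.888 without 1 array (0.815 without replicate 7). No called value changed sign, but uncalled ones did: of 4768 values over 213 named genes, 153 (in 52 genes) changed sign, 4 gained and 18 lost a call, and 4593 kept both. Fndc1 went to -0.33 with the floor at the median, Usp18 to 1.15 with the floor at the 10th percentile, Btrc to 0.21 with mean probe sets and Lss to 0.01 without replicate 10. Of 919 list medians under alternatives, 87 (in 21 of 40 lists) changed sign. The cause of these changes was not tested.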

Other observations

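Imprinted genes besides Igf2 had differences in both directions. Of the 23 tested genes (30 listed), 14 were positive and 9 negative (median 0.06), with 3 positive and 2 negative at an unadjusted p under 0.05. Zdbf2, a paternally expressed gene, gave 241, 208 and 207 in untreated wild type and 164 and 233 with Shh, against 526, 334 and 566 in untreated knockout and 937 and 1063 with Shh, so the knockout lay above wild type without Shh and further above with it, with a difference of 1.27 (SE 0.33, adjusted p = 0.686). Magel2, a paternally expressed gene of the Prader-Willi region, gave 94.4, 112 and 99.95 in untreated wild type and 83.4 and 91.4 with Shh, against 152, 90.2 and 98.3 in untreated knockout and 168 and 185 with Shh, a difference of 0.90 (SE 0.28, adjusted p = 0.807).

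Sterol synthesis genes rose in both genotypes: 17 of 20 tested in each, with medians of 0.93 and 0.80. The difference was negative for 15 of 20 (median -0.09). Lss, lanosterol synthase, gave 483, 417 and 439 in untreated wild type and 1191 and 1125 with Shh, against 434, 409.9 and 452 in untreated knockout and 819 and 819.9 with Shh, a difference of -0.45 (SE 0.14, adjusted p = 0.805). Another Lss probe set, about as bright, had smaller responses of 0.41 and 0.30 (difference -0.11). Srebf1, a transcription factor of lipid synthesis, rose in wild type (0.41), and its knockout response was 0.01 (adjusted p = 0.961). Trib3, a pseudokinase induced by Atf4, rose in both genotypes (1.64 and 0.67), with a difference of -0.97 (SE 0.28, adjusted p = 0.741), while the median of its list was 0.00.

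Activity-regulated genes had 21 of 28 differences above 0 (median 0.21), a sign that flipped in 1 of the 24 settings. Vgf, a secreted neuropeptide precursor, rose in both genotypes, from 422, 425 and 377 to 1206 and 1039.9 in wild type and from 436, 343 and 369.7 to 1428 and 1772 in the knockout, with a difference of 0.60 (SE 0.20, adjusted p = 0.829). Extracellular matrix genes fell in both genotypes (23 of 31 in wild type and 22 in the knockout) with a median difference of -0.02, and Tnr, tenascin-R, gave 183, 155 and 159.8 in untreated wild type and 49.1 and 61.1 with Shh, against 197, 217 and 214 in untreated knockout and 115 and 147 with Shh, a difference of 0.91 (SE 0.20, adjusted p = 0.546).

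The lists for ribosomal proteins (median -0.06), oxidative phosphorylation (-0.06), ribosome biogenesis (-0.12), fatty acid synthesis (-0.07), Nrf2 targets (0.02) and NF-kappaB and acute phase genes (-0.01) had between 0 and 1 members at an unadjusted p under 0.05. Saa3, an acute phase protein, rose in both genotypes (4.19 and 2.89), with a difference of -1.30 (SE 0.62, unadjusted p = 0.0643).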
